A study of Mus musculus with 12 samples.

Results

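Transcripts of the mouse cytochrome P450 3a (Cyp3a) family and of Nr1i2, the gene of the pregnane X receptor (PXR), were examined in liver and duodenum of mice given corticosterone (CORT) or vehicle (Veh). The 9 genes were the rows of both expression tables named Cyp3a11, Cyp3a13, Cyp3a16, Cyp3a25, Cyp3a41a, Cyp3a41b, Cyp3a44, Cyp3a59 or Nr1i2, of 55416 genes listed in each table. The mice were male C57BL6/J, 8 weeks old at the start, with no transgene or deletion named in the labels. They received CORT, the main glucocorticoid of rodents, at 40 mg/kg or the vehicle by daily subcutaneous injection for 8 weeks. Each tissue had 3 Veh and 3 CORT libraries, 12 in all, from 50 mg of tissue per sample, and the labels call them biological replicates without saying whether a liver and a duodenum came from the same mouse. The labels name the gut tissue only as intestine, and the study's methods name it as duodenum.

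Cyp3a enzymes are membrane-bound monooxygenases of the endoplasmic reticulum that hydroxylate steroids, bile acids and a wide range of drugs, and they are most abundant in hepatocytes and in the absorptive cells of the upper small intestine. They draw electrons from the reductase encoded by Por. PXR is a nuclear receptor that binds steroids and foreign compounds, pairs with the retinoid X receptor and binds DNA at repeats of a short half-site near Cyp3a genes and other genes of detoxification and export. Glucocorticoids are known both as substrates of Cyp3a enzymes and, at high doses, as inducers of Cyp3a transcription.

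The values were TPM, a relative transcript abundance corrected for transcript length, so levels of different genes within a library can be compared. Sequencing depth cannot be read from such values, so their counting error cannot be estimated, and a gene without signal is described as listed at 0. Changes are given as log2 fold changes of TPM + 1 with a standard error (SE), a scale that understates changes of low genes. They were tested with limma, with Benjamini-Hochberg adjustment over every gene that averaged 1 TPM or more in 1 of the groups compared. A gene was counted as differentially expressed (DEG) where the fold change exceeded 1.5 with an adjusted p no higher than 0.05. An exact permutation test of 3 against 3 libraries cannot give a two-sided p below 0.1, so none is given for single genes.

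Both tissues carried their defining transcripts. In duodenum the absorptive enterocyte genes Sis and Lct lay at 599.5 to 864.79 TPM and 203.44 to 601.8 TPM, while Alb of hepatocytes was at 0.13 to 0.39 TPM. In liver Alb was at 32823 TPM or more, and Sis and Lct were at 0.01 TPM or listed at 0. Fkbp5, a direct target of the glucocorticoid receptor used as the control of the treatment, rose in duodenum (log2 fold change 4.30, SE 0.34, limma adjusted p = 0.00450) and in liver (4.23, SE 0.32, adjusted p = 0.00178). The summed TPM of 34 pancreatic acinar genes stood at 51418 in Veh2 and 44503 in Veh3 of the duodenum, against 6524 in Veh1 and 6403 to 7203 in the CORT libraries, so these Veh libraries stood apart. The summed TPM of 10 absorptive enterocyte genes was 27920 to 41656 in Veh and 45240 to 54290 in CORT duodenum, without overlap. Of these 10 genes, 0 were DEGs by limma and 4 had an unadjusted p under 0.05 (19.2% of all genes tested did). The means of Alpi, Anpep, Sis and Vil1 were not higher with CORT. In these bulk samples, more cells of a type and more RNA per cell cannot be told apart.

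Several of these genes are near copies, which bears on how reads can be assigned. All 8 Cyp3a members lie on chromosome 5, and 7 of them lie close together, in the order Cyp3a16, Cyp3a41b, Cyp3a41a, Cyp3a44, Cyp3a11, Cyp3a25, Cyp3a59, with Cyp3a13 apart from them. The coding sequences of Cyp3a41a and Cyp3a41b, of 1512 bases each in the GENCODE M21 annotation, differed at 2 positions, and 82.9% of all windows of 150 bases (the length of 1 read) in the Cyp3a41a transcript occurred unchanged in Cyp3a41b. Cyp3a25 and Cyp3a59 differed at 38 of 1509 coding positions, but only 0.702% of the 150-base windows of Cyp3a25 were shared. No window of 150 bases of Cyp3a11, Cyp3a13, Cyp3a16 or Cyp3a44 occurred in another member. Of the coding sequence, Cyp3a11 shared 95.2% with Cyp3a41a, 94.9% with Cyp3a44, 92.8% with Cyp3a16, 76.4% with Cyp3a13 and 75.9% with Cyp3a25. Values of Cyp3a41a and Cyp3a41b are therefore uncertain as to the copy, and those of the other members less so.

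The copies are set side by side over the 90 bases of the coding strand with the most differences between Cyp3a41a and Cyp3a44. These lie at coding positions 595 to 684 counted from the A of the start codon, with capitals where a gene departs from Cyp3a41a. The stretch holds 0 differences in Cyp3a41b, 8 in Cyp3a44, 15 in Cyp3a16 and 8 in Cyp3a11.
Cyp3a41a: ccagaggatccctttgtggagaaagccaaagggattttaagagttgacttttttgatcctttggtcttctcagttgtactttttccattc
Cyp3a41b: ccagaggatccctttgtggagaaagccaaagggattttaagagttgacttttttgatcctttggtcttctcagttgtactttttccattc
Cyp3a44: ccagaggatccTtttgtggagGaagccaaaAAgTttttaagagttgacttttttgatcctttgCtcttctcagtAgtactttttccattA
Cyp3a16: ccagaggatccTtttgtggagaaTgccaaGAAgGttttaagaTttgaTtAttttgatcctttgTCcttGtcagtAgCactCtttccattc
Cyp3a11: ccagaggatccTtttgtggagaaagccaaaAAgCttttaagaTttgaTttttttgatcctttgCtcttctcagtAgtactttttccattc

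For the other close pair, the stretch with the most differences, at coding positions 260 to 349, is shown with capitals at the 7 positions where Cyp3a59 departs from Cyp3a25.
Cyp3a25: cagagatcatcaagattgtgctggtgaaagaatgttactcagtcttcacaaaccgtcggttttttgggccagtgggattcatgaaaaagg
Cyp3a59: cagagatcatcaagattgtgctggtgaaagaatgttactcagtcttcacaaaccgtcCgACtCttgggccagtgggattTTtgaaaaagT

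In Veh mice the tissues differed in which Cyp3a gene led. Cyp3a13 was the highest member in duodenum with a mean 9.80 times that of liver, while Cyp3a11 led in liver, at 1.81 times its duodenal mean. Cyp3a59 was found at more than a trace only in liver, Cyp3a25 was close in both tissues, and Nr1i2 was higher in duodenum. The summed Cyp3a TPM was 1225 ± 133 (SD, n = 3) in duodenum and 1039 ± 140 in liver, and the groups overlapped.

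Cyp3a13 (ENSMUSG00000029727) was at 697.93, 553.01 and 651.73 TPM in Veh duodenum against 68.06, 74.33 and 51.82 TPM in Veh liver. All duodenal values lay above all liver values (log2 difference, liver minus duodenum, -3.28, SE 0.17, limma adjusted p = 3.56e-06). Cyp3a11 (ENSMUSG00000056035), the major adult steroid and drug hydroxylase of the family, had 328.72, 412.34 and 544.28 TPM in duodenum and 648.11, 883.45 and 794.13 TPM in liver. The groups did not overlap, and the liver level was higher (0.87, SE 0.21, adjusted p = 0.00717). Cyp3a59 (ENSMUSG00000061292) had 0.40, 0.24 and 0.32 TPM in duodenum and 9.28, 9.81 and 5.47 TPM in liver (2.76, SE 0.22, adjusted p = 3.39e-05). It entered this test through liver alone. Cyp3a25 (ENSMUSG00000029630) had 218.71, 116.88 and 148.52 TPM in duodenum and 186.01, 220.66 and 164.07 TPM in liver, with overlapping groups (0.27, SE 0.24, adjusted p = 0.325). Nr1i2 (ENSMUSG00000022809) had 58.85, 42.74 and 64.27 TPM in duodenum and 19.68, 25.26 and 27.16 TPM in liver, so the receptor's transcript was higher in duodenum (-1.16, SE 0.20, adjusted p = 0.00143).

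Thus 2 members were DEGs higher in liver and 2 were DEGs higher in duodenum, where 14.4% and 53.0% of 14134 genes tested were. TPM is scaled within each library, the tissues come in separate tables, and the median log2 difference of all genes was -0.72. After a scaling that set this median near 0 (-0.02), Cyp3a11 (1.69), Cyp3a13 (-2.47) and Cyp3a59 (3.21) kept their direction and their call. Under the same scaling Nr1i2 was no longer a DEG (-0.36, adjusted p = 0.134), and Cyp3a25 became one, higher in liver (1.09, adjusted p = 0.00352).

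With CORT, the summed Cyp3a level was above every Veh library in both tissues, and Cyp3a11 made up most of the difference. The summed Cyp3a TPM went from 1225 ± 133 to 3537 ± 435 (SD, n = 3) in duodenum, 2.89 times, and from 1039 ± 140 to 2827 ± 439 in liver, 2.72 times. In duodenum, 2 of the 5 members tested, Cyp3a11 and Cyp3a13, were DEGs, and both rose. Of these 5, Cyp3a44 entered the test through the CORT group alone. In liver, 4 of 5 tested, Cyp3a11, Cyp3a13, Cyp3a25 and Cyp3a59, were DEGs, and all 4 rose. Among all genes tested, 1.23% of 13607 in duodenum and 4.91% of 11699 in liver were DEGs that rose.

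Cyp3a11 in duodenum went from 328.72, 412.34 and 544.28 TPM in Veh to 1952.7, 2673.52 and 1849.61 TPM in CORT. All CORT values lay above all Veh values, the means stood 5.04 times apart, and the rise passed the test (log2 fold change 2.34, SE 0.23, limma adjusted p = 0.00789). In liver it went from 648.11, 883.45 and 794.13 TPM to 2873.86, 2033.22 and 2111.2 TPM, 3.02 times, again with no overlap (1.59, SE 0.19, adjusted p = 0.00693). Its level under CORT was 2159 ± 449 TPM in duodenum and 2339 ± 464 TPM in liver (SD, n = 3), and those ranges overlapped. The difference between the tissues' log2 fold changes, liver minus duodenum, was -0.76 (SE 0.31, limma interaction term, adjusted p = 0.222) and did not pass. The summed enterocyte markers were 1.53 times higher in mean in CORT duodenum, and the hepatocyte list, through Apoa1, which enterocytes also express (8173 to 12149 TPM in Veh, 15581 to 21477 TPM in CORT), was 2.00 times higher. All 5 smooth muscle genes had negative log2 fold changes in duodenum (median -0.65), and 0 were DEGs by limma. Of the 5, 3 had an unadjusted p under 0.05, where 19.2% of all genes tested did. The summed TPM of the 5 was 418 to 833 in Veh and 276 to 446 in CORT, with overlap. The part of these cell types in the duodenal values of Cyp3a11 and the other members was not tested. Without Veh2 and Veh3, the libraries rich in acinar transcripts, the log2 fold change was 2.69 but was no longer called (adjusted p = 0.126). That fit has a single Veh library, which is assumed to vary like the CORT libraries, and it called 10 genes in all.

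Cyp3a13, an isoform known for its expression in the intestine, went in duodenum from 697.93, 553.01 and 651.73 TPM to 1121.21, 1049.79 and 1125.08 TPM. The groups did not overlap, and the rise of 1.73 times was a DEG (log2 fold change 0.80, SE 0.14, limma adjusted p = 0.0397). In liver it went from 68.06, 74.33 and 51.82 TPM to 109.23, 160.00 and 127.33 TPM, 2.04 times (1.02, SE 0.20, adjusted p = 0.0306). Every CORT liver stood above every Veh liver, but the CORT livers remained below every duodenum library. The duodenal call was lost whichever single library was left out, with log2 fold changes between 0.70 and 0.87, and without both acinar-rich Veh libraries it was 0.65 (adjusted p = 0.430). In liver the call was lost in 5 of the 6 fits that left out 1 library and held without Veh2 (log2 fold changes between 0.87 and 1.14).

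Cyp3a25 went in liver from 186.01, 220.66 and 164.07 TPM to 328.24, 335.45 and 325.78 TPM. The CORT livers were close to each other and all above the Veh livers (log2 fold change 0.80, SE 0.14, limma adjusted p = 0.0232). In duodenum, CORT1 at 190.71 TPM lay within the Veh range of 116.88 to 218.71 TPM, while CORT2 and CORT3 were at 311.21 and 327.44 TPM. The duodenal log2 fold change of 0.78 was of like size but had an SE of 0.29 and did not pass (adjusted p = 0.211), and the difference between tissues was 0.02 (SE 0.34, adjusted p = 0.985). The liver call was lost in 5 of the 6 fits that left out 1 library and held without Veh2 (log2 fold changes between 0.70 and 0.91).

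Cyp3a59, the near copy of Cyp3a25, went in liver from 9.28, 9.81 and 5.47 TPM to 20.86, 28.34 and 23.85 TPM. The lowest CORT liver was above the highest Veh liver, and the rise was 2.97 times in mean TPM (log2 fold change 1.49, SE 0.23, limma adjusted p = 0.0148). In duodenum it was at 0.24 to 0.40 TPM in Veh and 0.41, 0.56 and 0.83 TPM in CORT, below the level needed for the test there. Cyp3a59 was thus not a constant fraction of Cyp3a25: it was 3.33% to 4.99% of the Cyp3a25 level in Veh livers, 6.36% to 8.45% in CORT livers, and between 0.180% and 0.253% in all duodenum libraries. The interaction term gave a log2 difference of 1.22 between the tissues' responses (liver minus duodenum, SE 0.28, limma adjusted p = 0.0420), where 3.60% of 14806 genes tested were called and no other member was. Cyp3a59 entered that test through liver alone, and adding 1 to duodenal values below 1 TPM reduced a ratio of 1.88 times to a log2 fold change of 0.27, so this value does not show a difference between the tissues. With a pseudocount of 0.1 in place of 1 it was 0.88 (adjusted p = 0.300), and 11 of the 12 fits that left out 1 library lost the call, all but the fit without liver Veh2 (0.98 to 1.35). The liver rise itself was not called without the filter on low values (adjusted p = 0.0503).

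Nr1i2 itself went in duodenum from 58.85, 42.74 and 64.27 TPM to 128.13, 89.02 and 112.91 TPM, and in liver from 19.68, 25.26 and 27.16 TPM to 54.84, 51.72 and 32.18 TPM. Every CORT library was above every Veh library of its tissue, and the mean ratios were 1.99 and 1.92. Neither change passed the threshold after adjustment (duodenum log2 fold change 0.98, SE 0.20, limma adjusted p = 0.0643; liver 0.89, SE 0.23, adjusted p = 0.0651). In liver, CORT3 was the lowest of its group, and without it Nr1i2 was a DEG (1.13, adjusted p = 0.0244). With any other single liver library left out it was not called (limma adjusted p from 0.0993 to 0.191). In duodenum it was not called whichever single library was left out (limma adjusted p from 0.0842 to 0.153). The difference between tissues was -0.09 (SE 0.33, adjusted p = 0.916).

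The remaining members were at trace levels. Cyp3a44 (ENSMUSG00000054417) was at 2.10, 0.46 and 0.27 TPM in Veh and 1.70, 2.74 and 0.67 TPM in CORT duodenum, with overlap (log2 fold change 0.52, SE 0.43, limma adjusted p = 0.542). Its mean was 1 TPM or more only in CORT duodenum (1.70, against 0.94 in Veh duodenum). Cyp3a44 thus entered the duodenal test and the interaction test through that group alone. In liver it was at 0.10, 0 and 0.02 TPM in Veh and 0.48, 0.18 and 1.32 TPM in CORT. Cyp3a41a (ENSMUSG00000075551), whose liver expression is known to be female-predominant, was at 0.07, 0.08 and 0.06 TPM in Veh livers and 0.50, 0.73 and 0.76 TPM in CORT livers. It lay below the filter, and with the filter removed it was called higher in CORT livers (0.63, SE 0.08, adjusted p = 0.0319). In duodenum it was at 0.07 TPM or listed at 0 in Veh and at 0.19, 0.63 and 0.50 TPM in CORT. Cyp3a41b (ENSMUSG00000075552) was listed at 0 in all 12 libraries, and Cyp3a16 (ENSMUSG00000038656), a fetal and neonatal liver form, was above 0 only in 1 library, duodenum CORT2, at 0.12 TPM. Summed over Cyp3a16, Cyp3a41a, Cyp3a41b and Cyp3a44, which does not depend on how reads were split among these copies, the level was 0.08 to 0.17 TPM in Veh and 0.91 to 2.08 TPM in CORT liver (1.03, SE 0.26, adjusted p = 0.0636). In duodenum the sum was 0.27 to 2.17 TPM in Veh and 1.17 to 3.49 TPM in CORT, with overlap (0.75, SE 0.42, adjusted p = 0.379). In both tissues the sum averaged 1 TPM or more only with CORT, so it entered the test through that group alone. The sum leaves out Cyp3a11, which shares 95.2% of its coding sequence with Cyp3a41a and lay at 2033.22 TPM or more in CORT livers. Whether some reads of Cyp3a11 were counted for Cyp3a41a or the other traces was not tested.

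Counting all 9 members without a filter, CORT libraries stood above every Veh library for 5 members in duodenum and for 7 in liver, and for no member below. Among the genes tested, which had passed the filter, 12.2% in duodenum and 20.6% in liver stood wholly above. Of the members counted, Cyp3a41a and Cyp3a59 in duodenum and Cyp3a41a and Cyp3a44 in liver had not passed it. The counts and shares are therefore not on the same set. Among members that passed, Cyp3a11, Cyp3a13 and Nr1i2 stood wholly above in duodenum, and all did in liver. The plot of TPM by library shows these levels for 6 of the members.

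**Figure D1:**
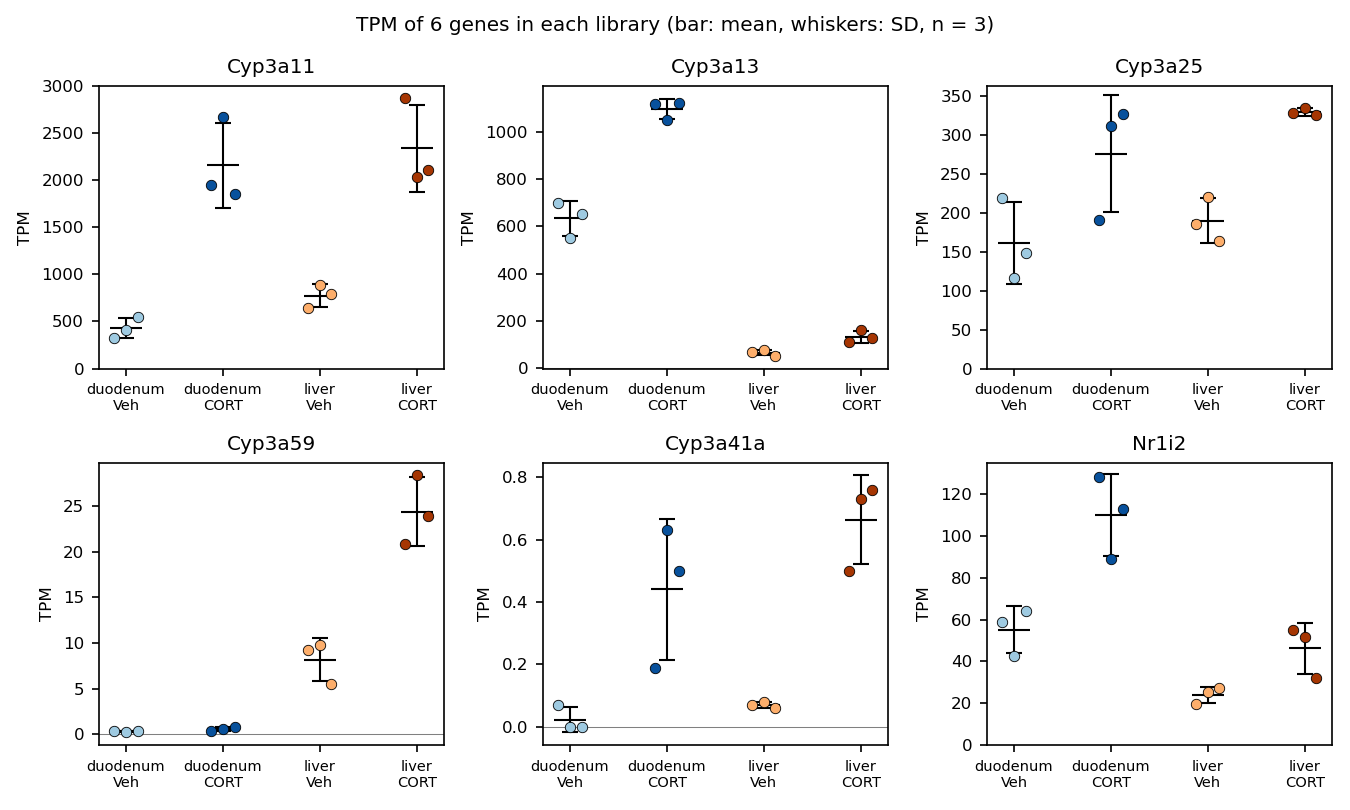
TPM (linear axes, a separate scale in each panel) of Cyp3a11, Cyp3a13, Cyp3a25, Cyp3a59, Cyp3a41a and Nr1i2 in each of the 12 libraries, by tissue and treatment, with points for libraries, horizontal bars for means and whiskers for SD (n = 3). CORT points lie above all Veh points of the same tissue in every panel except Cyp3a25 in duodenum, where CORT1 at 190.71 TPM falls within the Veh range.

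**Figure D2:**
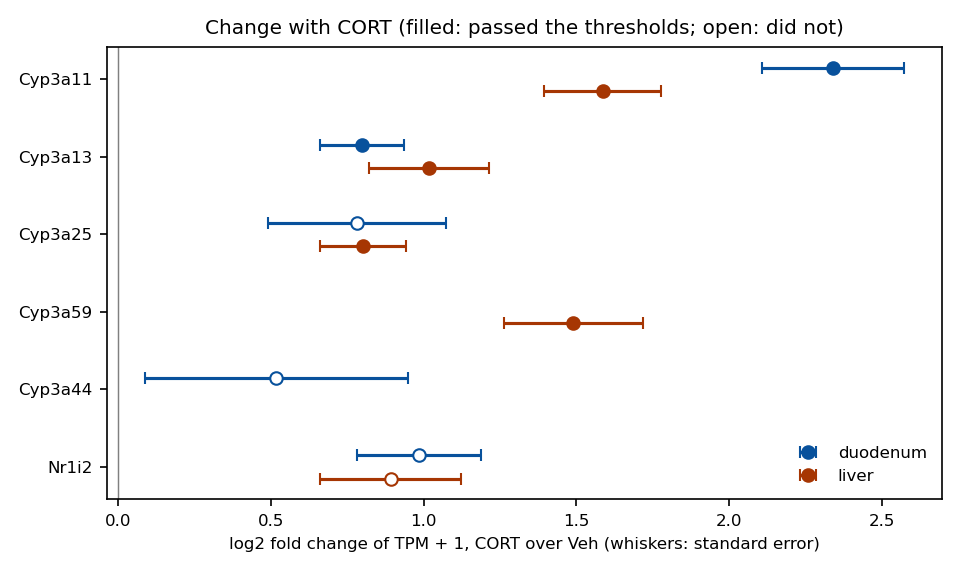
Log2 fold change of TPM + 1, CORT over Veh, with its standard error, for the members tested in duodenum (blue) and liver (brown), where filled points are DEGs. Cyp3a11 had the highest values, 2.34 and 1.59, and the points of Nr1i2, at 0.98 and 0.89, are open in both tissues.

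The make-up of the Cyp3a pool changed with CORT more in duodenum than the near equal rise of the sums shows. In Veh duodenum Cyp3a13 held 48.5% to 55.9% of the summed Cyp3a TPM and Cyp3a11 26.3% to 40.5%, and in CORT duodenum Cyp3a11 held 56.0% to 66.2% and Cyp3a13 26.0% to 34.3%. The order of these genes was thus reversed in every CORT library, with Cyp3a11 at 1.64 to 2.55 times the Cyp3a13 level against 0.471 to 0.835 times in Veh. In liver Cyp3a11 led in both groups, with 71.1% to 78.2% in Veh and 79.5% to 86.2% in CORT. The share of Cyp3a25 was lower with CORT in both tissues, from between 10.8% and 17.5% to between 5.84% and 9.91% in duodenum, and from between 16.2% and 20.4% to between 9.85% and 13.1% in liver, although its TPM was not lower. The order of levels in liver was Cyp3a11, Cyp3a25, Cyp3a13, Nr1i2 and Cyp3a59 in both groups, and the ranges of neighbours in this order did not overlap within a group. In duodenum the order was Cyp3a13, Cyp3a11, Cyp3a25, Nr1i2 in Veh and Cyp3a11, Cyp3a13, Cyp3a25, Nr1i2 in CORT, also without overlap between neighbours.

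**Figure D3:**
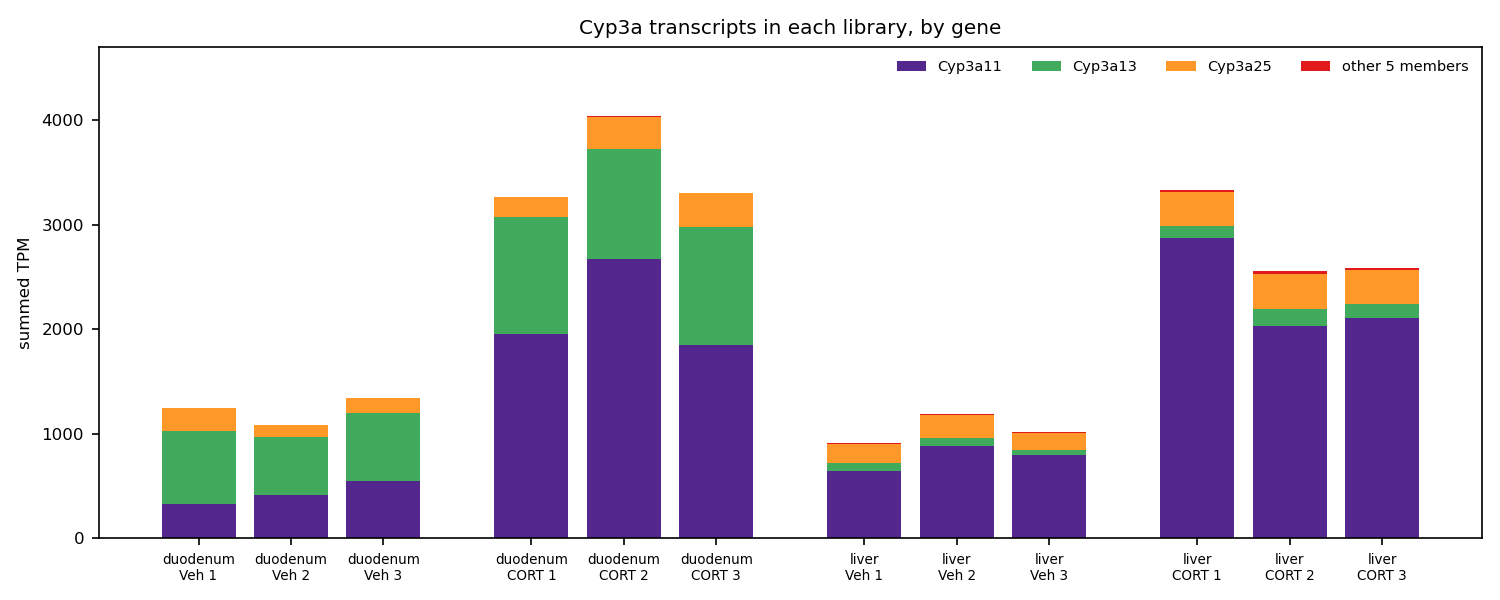
Summed TPM of the 8 Cyp3a members in each library (bars from 0), split into Cyp3a11, Cyp3a13, Cyp3a25 and the other 5 members. Bars reach 1083 to 1345 TPM in Veh and 3267 to 4039 TPM in CORT duodenum, and 912 to 1188 TPM in Veh and 2558 to 3333 TPM in CORT liver, and the Cyp3a13 segment is large only in duodenum.

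Promoters of the members were compared because Cyp3a25 and Cyp3a59 rose together in liver but stood at very different levels. All 9 members had an entry in the RefSeq promoter table (GRCm38.p6, 250 bases before to 50 after the start). The 250 bases before the start shared 95.6% of aligned positions between Cyp3a25 and Cyp3a59 and 99.6% between Cyp3a41a and Cyp3a41b, against 75.8% to 77.1% between Cyp3a11 and the Cyp3a16, Cyp3a41 and Cyp3a44 copies. Searched on both strands with exact letters, none of the 9 held the PXR half-site AGTTCA as a direct repeat with a gap of 3 or 4 or as an everted repeat with a gap of 6 or 8, motifs found in 0% to 0.0148% of 27025 promoters. None held the glucocorticoid receptor half-site AGAACA as an inverted repeat with a gap of 3 (0.0037% of promoters). The single half-site AGTTCA occurred in 3 of 9 members and 14.0% of all promoters, and AGAACA in 5 of 9 and 19.0%. The near copies Cyp3a41a and Cyp3a41b both count for AGTTCA, and Cyp3a25 and Cyp3a59 both count for AGAACA. The member counts are therefore not of independent promoters. In Cyp3a11, Cyp3a16 and Nr1i2, AGAACA lay after the start. The single AGTTCA was not among the motifs planned. The related half-site AGGTCA, added after the promoters had been looked at, occurred in 4 of 9 and 16.0%, and the 4 include both Cyp3a25 and Cyp3a59. A match describes these letters only, and distant enhancers lie outside this window. The leading gene and the close pair are shown 5′ to 3′ on the gene's strand (coordinates in GRCm38.p6), with the single half-sites just named, or their reverse complements, in capitals.
Cyp3a11, chr5:145879855-145880104, minus strand: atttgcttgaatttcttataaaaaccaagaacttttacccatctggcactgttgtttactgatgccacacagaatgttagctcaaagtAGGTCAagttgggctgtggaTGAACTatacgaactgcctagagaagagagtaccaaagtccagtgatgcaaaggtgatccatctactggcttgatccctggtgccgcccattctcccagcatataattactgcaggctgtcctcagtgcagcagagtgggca
Cyp3a25, chr5:146009619-146009868, minus strand: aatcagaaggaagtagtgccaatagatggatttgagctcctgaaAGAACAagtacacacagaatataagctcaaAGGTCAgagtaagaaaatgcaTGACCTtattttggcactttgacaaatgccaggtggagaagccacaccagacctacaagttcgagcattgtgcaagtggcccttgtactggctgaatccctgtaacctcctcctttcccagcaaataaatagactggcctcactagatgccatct
Cyp3a59, chr5:146079008-146079257, plus strand: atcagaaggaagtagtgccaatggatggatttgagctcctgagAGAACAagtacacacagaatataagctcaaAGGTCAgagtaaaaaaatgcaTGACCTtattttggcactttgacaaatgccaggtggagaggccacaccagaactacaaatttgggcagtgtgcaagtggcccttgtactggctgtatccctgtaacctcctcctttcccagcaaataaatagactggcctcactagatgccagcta

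Before its start, Cyp3a11 holds AGGTCA at -162 and, on the other strand, AGTTCA at -142. Cyp3a25 holds AGAACA at -206, AGGTCA at -176 and its reverse complement at -155, and Cyp3a59 holds the same 3 at -207, -177 and -156, counted from the first base of each match to the start.

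Some partners and regulators of PXR changed. Of 19 listed nuclear receptors and cofactors, 18 were tested in each tissue. In duodenum 1 rose and 1 fell as DEGs, where 1.23% of all genes tested rose and 0.919% fell, with a median log2 fold change of 0.15 beside -0.01 for all genes. Nr0b2, which encodes the repressor SHP, rose from 5.92, 8.78 and 7.10 TPM to 20.93, 22.46 and 15.92 TPM (1.33, SE 0.19, limma adjusted p = 0.0253). Nr3c2, the mineralocorticoid receptor, fell from 8.45, 10.35 and 9.51 TPM to 3.06, 4.46 and 4.65 TPM (-1.06, SE 0.17, adjusted p = 0.0336). Both changes left the groups apart.

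In liver 3 of the 18 rose and 2 fell, where 4.91% of all genes tested rose and 2.01% fell, with a median of 0.16 beside 0.08 for all genes. Hnf4a, a master regulator of hepatocyte genes that also acts on Cyp3a enhancers, rose from 144.76, 161.27 and 144.38 TPM to 278.50, 232.80 and 315.98 TPM (0.86, SE 0.15, limma adjusted p = 0.0211). Foxo1, a factor restrained by insulin, rose from 3.23, 4.17 and 4.64 TPM to 10.12, 6.59 and 9.57 TPM (0.95, SE 0.20, adjusted p = 0.0357). Nr3c2 fell and was at 1.81 to 2.54 TPM in Veh and 0.59 to 0.80 TPM in CORT livers (-0.86, SE 0.19, adjusted p = 0.0406). Its liver mean was 1 TPM or more only in Veh, so it entered the test through that group alone. Hnf4a in duodenum was at 190.17 to 220.33 TPM in Veh and 164.19 to 190.50 TPM in CORT, with overlap (adjusted p = 0.396). Rxra, the partner of PXR on DNA, was at 41.90 to 51.12 TPM and 40.51 to 53.37 TPM in Veh and CORT duodenum (adjusted p = 0.980) and at 79.12 to 94.90 TPM and 100.56 to 105.91 TPM in liver (adjusted p = 0.209). Nr1i3, the sister receptor CAR, overlapped between groups in both tissues (adjusted p = 0.511 and 0.925). Nr3c1, the glucocorticoid receptor, overlapped as well (adjusted p = 0.859 and 0.972).

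Genes known as PXR targets outside the Cyp3a family moved in both directions in duodenum. Of 23 listed, 18 were tested in duodenum, where 2 rose and 1 fell as DEGs (1.23% and 0.919% of all genes tested did). Of the 18, 12 had an unadjusted p under 0.05 (19.2% of all genes did), and the median was 0.15 beside -0.01 for all genes. In liver 22 were tested, and 3 rose and 0 fell by limma (4.91% and 2.01% of all genes tested did). Of the 22, 8 had an unadjusted p under 0.05 (25.9% of all genes did), and the median was 0.31 beside 0.08 for all genes. Cyp2b10, also the classic target of CAR, was at 1.56, 0.60 and 6.51 TPM in Veh livers and 1052, 777.67 and 1141 TPM in CORT livers (8.29, SE 0.52, limma adjusted p = 0.00143). In duodenum it was already at 574.69, 423.99 and 500.81 TPM in Veh and rose to 1143, 1050 and 1064 TPM (1.13, SE 0.15, adjusted p = 0.0215). No other listed gene was called with a change of this size in liver.

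Akr1b7, an aldo-keto reductase that detoxifies lipid aldehydes, rose in duodenum from 181.32, 47.61 and 161.80 TPM to 714.37, 712.89 and 1017 TPM (2.83, SE 0.49, limma adjusted p = 0.0397). In liver it rose from 0.04, 0.14 and 0.08 TPM to 1.24, 1.77 and 3.72 TPM (1.51, SE 0.31, adjusted p = 0.0349). Akr1b7 averaged 1 TPM or more in liver only with CORT, so it entered the liver test through that group alone. Gstm2, a glutathione transferase, rose in liver from 44.15 to 66.48 TPM to 85.17 to 191.35 TPM (1.35, SE 0.31, adjusted p = 0.0490), and in duodenum it was at 70.59 to 116.81 TPM and 162.18 to 170.30 TPM (adjusted p = 0.0784). Against these, Cyp2c55 fell in duodenum from 43.30, 42.78 and 45.41 TPM to 3.77, 5.70 and 6.88 TPM (-2.83, SE 0.19, adjusted p = 0.00310). The exporter genes Abcc2 and Abcc3 were also lower in every CORT than in every Veh duodenum but did not pass (adjusted p = 0.167 and 0.0654), and Abcb1a overlapped (adjusted p = 0.386).

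Por and other genes listed as electron donors or partners of P450 enzymes were compared next. Of the 5 listed, Por, Cyb5a, Cyb5b, Cyb5r3 and Pgrmc1, all tested in both tissues, only Por was a DEG. Of the 5, 4 in duodenum and 1 in liver had an unadjusted p under 0.05. Of all genes tested, 1.23% in duodenum and 4.91% in liver rose as DEGs, and 19.2% and 25.9% had such a p. In duodenum Por went from 212.72, 207.48 and 214.32 TPM to 588.81, 412.33 and 538.96 TPM (1.26, SE 0.16, limma adjusted p = 0.0189). In liver it went from 127.21, 221.27 and 195.72 TPM to 598.57, 561.46 and 628.29 TPM (1.75, SE 0.21, adjusted p = 0.00702), and CORT and Veh libraries did not overlap in either tissue. In duodenum the CORT values of Cyb5b and Cyb5r3 lay wholly below, and those of Pgrmc1 wholly above, the Veh values, without passing after adjustment (adjusted p = 0.188, 0.197 and 0.241). The median over the 5 genes was 0.28 in duodenum and -0.10 in liver. Cyb5a, the most abundant of the 5 in liver at 1222 to 1507 TPM over both groups, overlapped between them (adjusted p = 0.931).

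**Figure D4:**
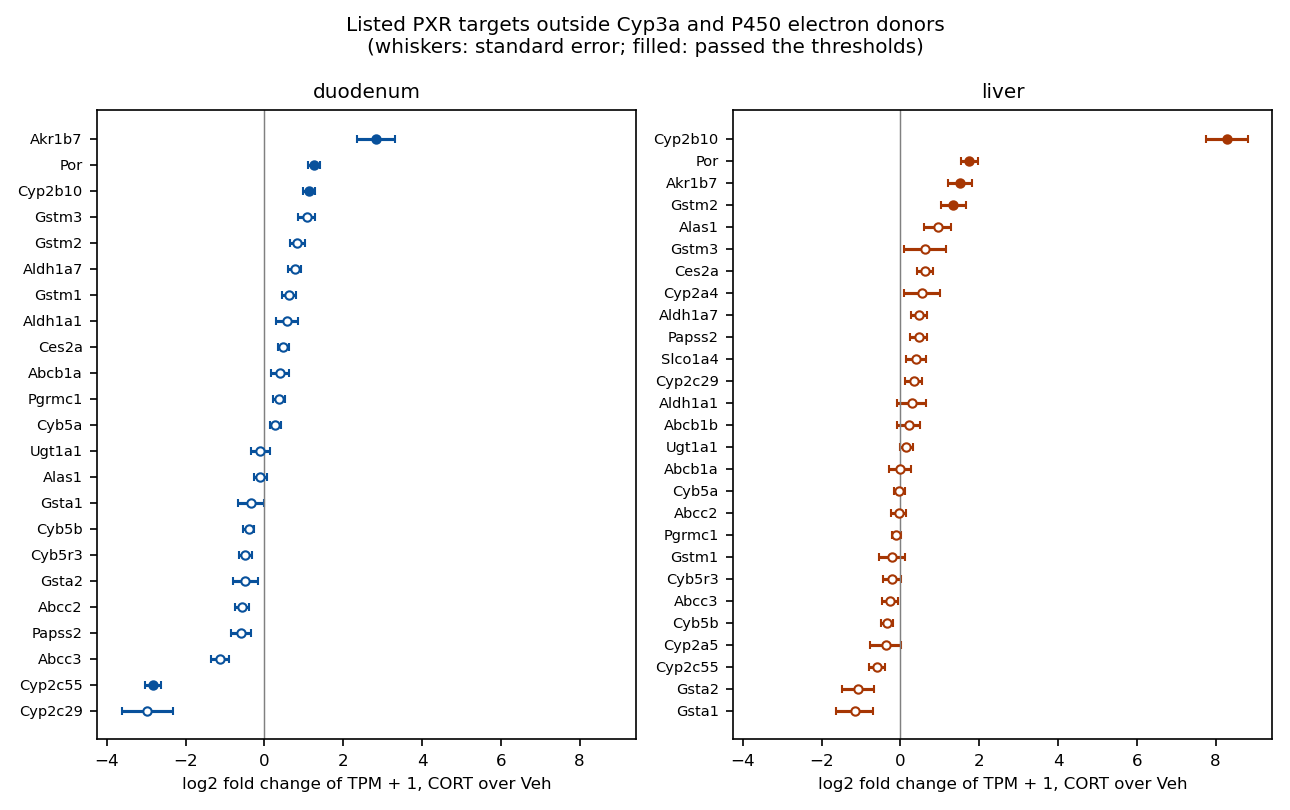
Log2 fold change of TPM + 1, CORT over Veh, with its standard error, with DEGs filled. Shown are the listed PXR targets outside the Cyp3a family and the listed P450 electron donors or partners that were tested in each tissue. Cyp2b10 in liver, at 8.29, lies far from all others, Por is filled in both panels, and Cyp2c55 is filled on the lower side in duodenum only, at -2.83.

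Other enzymes that handle steroids were compared as well. Of 13 listed, 8 were tested in duodenum, of which 3 rose as DEGs, where 1.23% of all genes tested did. Of the 8, 6 had an unadjusted p under 0.05 (19.2% of all genes did), and the median was 0.69 beside -0.01 for all genes. Hsd11b2, which inactivates CORT, rose from 4.60, 4.36 and 3.28 TPM to 21.42, 14.77 and 18.93 TPM (1.93, SE 0.18, limma adjusted p = 0.00621). Cyp27a1, a mitochondrial sterol hydroxylase, rose from 45.30, 21.28 and 29.19 TPM to 153.91, 132.77 and 228.28 TPM (2.42, SE 0.31, adjusted p = 0.0189). Srd5a2, a steroid reductase, rose at a low level, from 0.65 to 0.85 TPM to 2.99 to 3.48 TPM (1.33, SE 0.16, adjusted p = 0.0185). Srd5a2 averaged 1 TPM or more there only with CORT, so it entered the test through that group alone. In liver 11 were tested, with a median of -0.04 beside 0.08 for all genes, and 4 had an unadjusted p under 0.05 (25.9% of all genes did). Of the 11, 2 rose as DEGs, where 4.91% of all genes tested did. These were Cyp27a1 (0.92, SE 0.15, adjusted p = 0.0182) and Cyp39a1, an oxysterol hydroxylase, which went from 3.93, 11.56 and 6.10 TPM to 46.31, 38.86 and 49.44 TPM (2.59, SE 0.32, adjusted p = 0.00774).

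By likeness over the 12 libraries, a description in which libraries of a tissue and treatment are alike by design, the genes whose log2(TPM + 1) was closest to Cyp3a11 among 8021 searched were Cdc37l1 and Gm15889 (Pearson r = 0.953 each) and Rnf103 (0.950). Closest to Cyp3a13 were Gramd1b, Capn15 and Tprn (0.992 each). Closest to Nr1i2 were Slc25a34 (0.982), Ephx2 (0.976) and Creb3l3 (0.964). Of the other Cyp3a rows, Cyp3a57 and Cyp3a61-ps1 were listed at 0 in all libraries, and the pseudogene Cyp3a63-ps was listed at 0 in every Veh library and reached at most 0.26 TPM with CORT.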

How the data were processed

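RNA-seq of liver and duodenum gave 12 libraries, grouped by the sample labels into 3 Veh and 3 CORT per tissue. SeqPrep and Sickle were used by the authors for trimming, HISAT2 for alignment, StringTie for assembly and RSEM for quantification, which gave the deposited TPM of each gene in each library. The submitters' processing notes name GRCm39, and tool versions are not given in the sources used here. TPM sums lay between 983327 and 997319 per library, and the depth is unknown, so precision comes only from 3 replicates. How RSEM divided reads among near copies is part of the deposited TPM. RSEM shares reads that match several genes among them by estimation, so a read shared by Cyp3a41a and Cyp3a41b can count for either.

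From TPM, log2(TPM + 1) was fitted by lmFit and trended eBayes of limma 3.58.1 (R 4.3.3) for each tissue, for Veh liver against Veh duodenum, and for treatment by tissue over all libraries. Tested genes averaged 1 TPM or more in at least 1 group. The fits were tested on simulated data. Alternatives were a pseudocount of 0.1, no filter, median-ratio scaling, removal of acinar genes, a replicate block, each library left out, sums of near copies, and no limit on fold change. Leaving out both acinar-rich Veh libraries was added after seeing the data. All members are named in every comparison, with DEGs of each list (up to 6 per direction and tissue) and the 3 genes most like Cyp3a11, Cyp3a13 and Nr1i2. Some genes that this rule selects are not reported here. Members and lists were chosen with earlier results of these data known. Sequences came from GENCODE M21 transcripts and the RefSeq promoter table (GRCm38.p6), a build other than the authors'. Coordinates are given only for the printed promoters, in GRCm38.p6.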

Additional observations from a re-analysis of the deposited data

Results flagged for a closer look

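For Cyp3a59 the interaction term of limma gave a log2 difference of 1.22 between the tissues' responses to CORT (liver minus duodenum, SE 0.28, adjusted p = 0.0420). The gene entered that test through liver alone, and all its duodenal values were below 1 TPM, where a ratio of 1.88 times becomes a log2 fold change of 0.27 once 1 is added, against 2.97 times and 1.49 in liver. With a pseudocount of 0.1 the log2 difference was 0.88 (adjusted p = 0.300), so these values do not show a difference between the tissues.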

How the results depend on the processing

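The rise of Cyp3a11 kept its direction and call under all 14 other settings run before the acinar-rich libraries were left out together, with log2 fold changes from 2.17 to 2.53 in duodenum and from 1.43 to 1.69 in liver. The number of members called in duodenum, 2 as reported, was 1 without a filter, 1 with the replicate block, 1 whichever library was left out, and 0 without both acinar-rich Veh libraries, where Cyp3a44 turned to -0.27. In liver, 4 as reported, it was 2 without a filter (Cyp3a11 and, untested before, Cyp3a41a, while Cyp3a13, Cyp3a25 and Cyp3a59 were lost with adjusted p = 0.0767, 0.0509 and 0.0503), 2 with the replicate block (Cyp3a11 and Cyp3a59) and 2 to 4 with a library left out. The single member called by the interaction term was lost (0) with a pseudocount of 0.1, without a filter and with the replicate block, and 0 to 1 were called with a library left out. In that comparison signs turned for values near 0, namely Cyp3a25 (-0.072 under median-ratio scaling and -0.23 to 0.23 with a library left out), Cyp3a44 (-0.30 to 0.37) and Nr1i2 (-0.24 to 0.14). Between the Veh tissues 4 members were called, and 4 to 5 with a library left out or under other settings. The cause of these changes was not tested.

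Over all genes, DEGs numbered 292 in duodenum (52 without a filter, 62 with the replicate block, 66 to 237 with a library left out, 10 without both acinar-rich Veh libraries), 810 in liver (283, 307 and 247 to 831) and 533 for the interaction (336, 210 and 289 to 626). In liver 575 rose and 235 fell, and 543 and 468 under median-ratio scaling. Replicate numbers are shared between groups in the labels. Deviations of same-numbered libraries correlated between -0.12 and 0.07, and not every library correlated best with its own number. With 3 libraries per group, such correlations cannot decide whether same-numbered libraries belong together. The numbers were not treated as pairs outside the replicate block. The unknown depth limits what can be said of members below 1 TPM.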

Other observations

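Genes known to differ between male and female liver were also followed, because Cyp3a41a, Cyp3a44 and Cyp3a16 belong to a sex- and age-dependent part of the family. Of 10 listed male-predominant genes, all tested in liver, 2 fell with CORT, 0 rose by limma and 5 had an unadjusted p under 0.05, where 2.01% of all genes tested fell and 25.9% had such a p, with a median log2 fold change of -1.11 beside 0.08 for all genes. Hsd3b5, a steroid reductase of male liver, fell from 181.48, 48.60 and 135.18 TPM to 5.41, 0.36 and 1.22 TPM (-5.32, SE 0.67, limma adjusted p = 0.00774). Cyp2u1 fell from 12.63, 10.07 and 7.36 TPM to 2.82, 1.59 and 3.21 TPM (-1.64, SE 0.25, adjusted p = 0.0148). Elovl3 was the only one of the 10 with a higher CORT mean, and its groups overlapped.

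Of 8 listed female-predominant genes, 3 were tested in liver and 0 were called by limma, with 1 at an unadjusted p under 0.05. Cyp2b9 was at 0.02 to 0.12 TPM in Veh livers and at 0.19, 46.58 and 0 TPM in CORT livers, so a single library, CORT2, was high. In the same livers Apoa4, listed here among enterocyte genes, was at 76.21 to 172.32 TPM in Veh and 2691, 3840 and 555.35 TPM in CORT, while Alpi was listed at 0 in all 6 livers.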
